A study of Arabidopsis thaliana with 18 samples.

Results

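The genes described here were higher than in wild type at flower stage 12 in the *myb21-5 myb24-5* double mutant but not in the *arf6-2 arf8-3* double mutant of *Arabidopsis thaliana*. Of 22746 probe sets on the Affymetrix ATH1 gene chip that are not controls, 33 met this rule. Values are log2 expression values, so a difference of 1 is a 2-fold difference. A probe set was taken when its stage 12 mean in *myb21-5 myb24-5* lay at least 0.8 above the wild-type mean with all 3 mutant arrays above all 3 wild-type arrays, when the *arf6-2 arf8-3* mean lay within 0.38 of wild type, and when the wild-type mean moved by less than 1 between stages 12 and 13. These stage 12 values and the wild-type stage change chose the members, so they are given as a description without a test. The mutant arrays of stage 13 were not used to choose them.

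Whole flowers of *myb21-5 myb24-5*, *arf6-2 arf8-3* and wild-type plants in the Columbia ecotype were measured at stage 12, the largest closed buds, and stage 13, when wild-type flowers first open, with 3 biological replicates (A, B and C) per genotype and stage and hence 18 arrays in 6 groups. The *myb21-5* allele carries an EMS-induced premature stop codon and came from a screen in *arf6-2* plants, and *myb24-5* carries a T-DNA insertion in an intron. The *arf6-2 arf8-3* plants carry mutant alleles of the auxin response factor genes *ARF6* and *ARF8*, isolated earlier. Flowers were collected in the morning. Flower opening is impaired in the mutants, and the sources used here do not state how their stage 13 flowers were picked for the arrays.

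MYB21 and MYB24 are R2R3 MYB transcription factors made in petals, stamen filaments, style and nectaries shortly before the flower opens, and they promote petal and stamen filament growth. ARF6 and ARF8 are auxin response factors that act before them, in part by allowing flowers to make the hormone jasmonate. Jasmonate promotes the breakdown of JAZ repressor proteins and also induces many defence genes in leaves, among them genes for glucosinolates (sulphur-containing defence compounds), protease inhibitors and arginase.

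The genes disrupted in the mutants were read first, because 1 array went against its label. *ARF6* had 4.75 on the stage 13 array labelled as replicate A of *myb21-5 myb24-5* (called labelled array A below), against 9.48 and 9.21 on replicates B and C and 4.73, 5.27 and 4.79 on the *arf6-2 arf8-3* stage 13 arrays. *ARF8* had 5.68 on it, against 9.75 or more on B and C. *MYB21* had 5.05 there and 11.85 and 11.95 on B and C, and *MYB24* had 3.88 there and 9.85 and 9.07 on B and C. On this array all 4 genes thus lay at or near the level of the *arf6-2 arf8-3* arrays. The MYB lesions did not remove the probe set signals, so these do not check the *myb21-5 myb24-5* label by themselves. *MYB21* was at 10.62, 10.96 and 11.42 in *myb21-5 myb24-5* at stage 12 against 12.47, 12.38 and 12.36 in wild type.

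**Figure D1:**
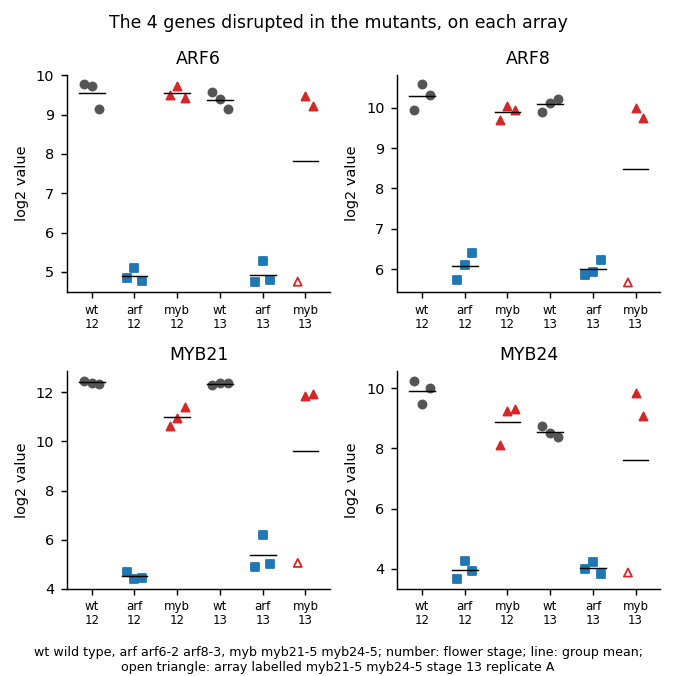
Log2 values of *ARF6*, *ARF8*, *MYB21* and *MYB24* (vertical axes) on each array, by genotype and stage (horizontal axes), with a line at each group mean. The open triangle, labelled array A, lies with the *arf6-2 arf8-3* arrays for all 4 genes.

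Over all 22746 probe sets, the SD of the log2 difference between labelled array A and *arf6-2 arf8-3* stage 13 replicate A was 0.121, below the SDs of pairs of replicates of one group (0.236 to 0.551). It was 0.538 and 0.551 against its own replicates B and C. For the 33 members, the median absolute distance to that *arf6-2 arf8-3* array was 0.10 and the largest was 0.29, while it lay below both B and C in 29 members and above both in 3. The stage 13 counts and medians of the members are therefore given with all arrays and again without labelled array A, which leaves 2 *myb21-5 myb24-5* arrays at stage 13.

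**Figure D2:**
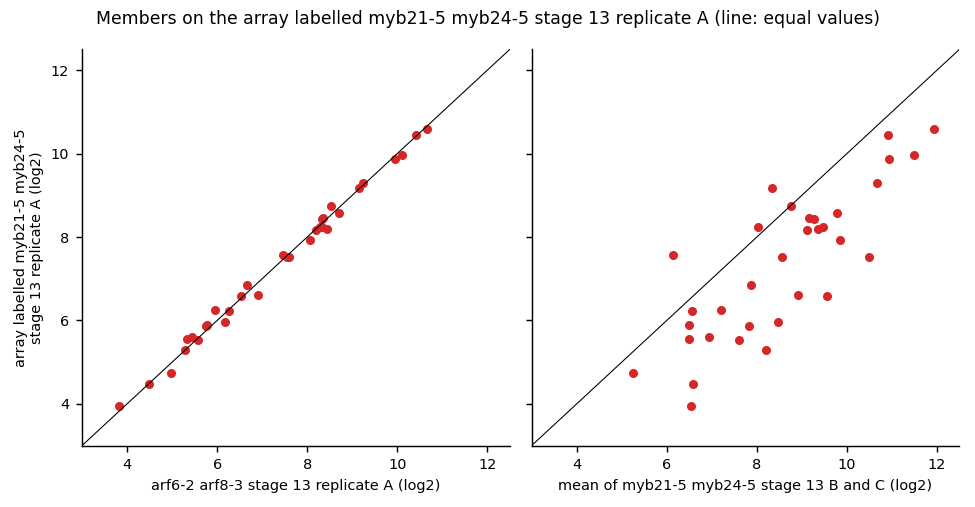
Log2 values of the 33 members on labelled array A (vertical axes) against *arf6-2 arf8-3* stage 13 replicate A (left) and against the mean of *myb21-5 myb24-5* stage 13 replicates B and C (right), with a line of equal values. On the left, all points lie within 0.29 of the line, and on the right most lie below it, with a median difference of -1.17.

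At stage 12 the members were 1.75- to 3.08-fold higher in *myb21-5 myb24-5* than in wild type, with a median log2 difference of 1.06, and 21 of 33 reached 2-fold. In whole flowers, more cells of a type and more RNA per cell cannot be told apart, and the same holds for fewer cells and less RNA. The largest differences were those of *MES9* (1.62), *At3g47540* (1.51), *At2g43535* (1.41), *COPT3* (1.41), probe set 264271_at (1.36), *PRP2* (1.34), *UGT76E12* (1.30) and *At1g14120* (1.28). The lowest *myb21-5 myb24-5* array lay 0.10 to 0.99 above the highest wild-type array. Just inside the limit of 0.8 lay 265740_at (0.804) and *At2g28130* (0.807), and just outside it 245538_at (0.796) and *At1g06000* (0.794). At the limit on *arf6-2 arf8-3*, *MES9* (0.353) and the arginase probe set (-0.358) were inside, and *At2g21640* (0.392) was outside. *At1g31550* (-0.998) was just inside the limit on the wild-type stage change and *At1g75890* (-1.022) just outside.

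The limit on *arf6-2 arf8-3* removed most candidates. Of 142 probe sets that met the other conditions, 79 were also higher in *arf6-2 arf8-3* by at least 0.38 and 30 were lower by as much. Among the 33 members, all *myb21-5 myb24-5* arrays lay above all *arf6-2 arf8-3* arrays at stage 12 in 29, where 9.29% of all probe sets did so, a contrast that the rule partly fixed. In wild type, 26 members were lower at stage 13 than at stage 12 and 7 were higher, with a median change of -0.50, against 51.9% of all probe sets lower. The members were neither bright nor dim as a set, with wild-type stage 12 means from 3.85 to 10.58 and a median of 7.62, against 7.77 over all probe sets.

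A locus was assigned to 26 of the 33 probe sets, 25 of them to 1 gene, while 7 were left unnamed by the tables used here. The named members include genes for glycosyltransferases, cytochromes P450, oxidoreductases, hydrolases and carriers of copper or of larger molecules. The named members lie on all 5 chromosomes, with 7 on chromosome 1, 6 on chromosome 2, 5 on chromosome 3, 4 on chromosome 4 and 4 on chromosome 5.

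**Figure D3:**
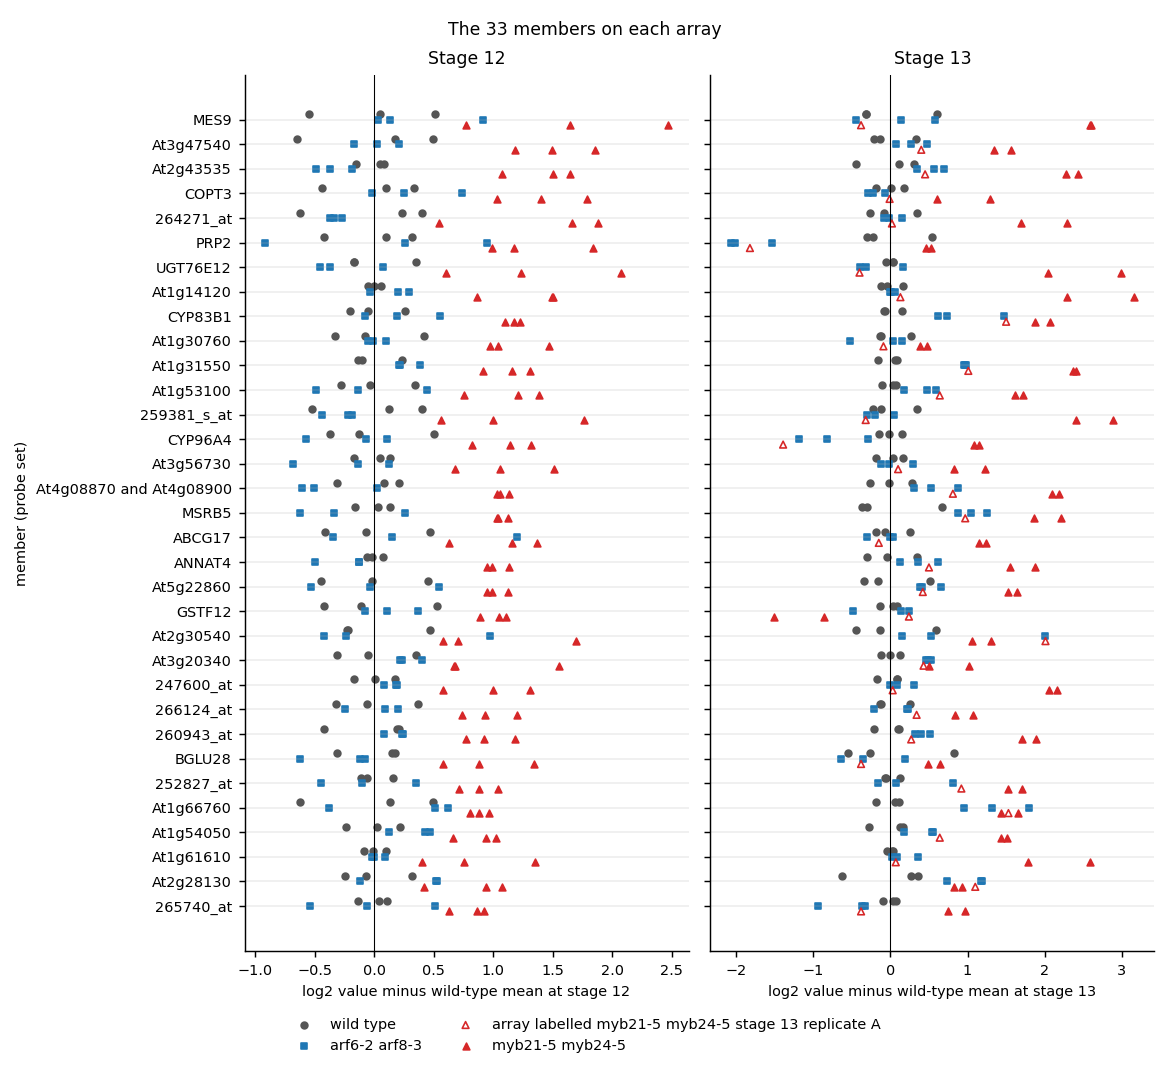
Log2 value minus the wild-type mean of the same stage (horizontal axes) for each of the 33 members (rows, ordered by their stage 12 difference) on every array, at stage 12 (left) and stage 13 (right). In the right panel both further *myb21-5 myb24-5* arrays, B and C, lay above all wild-type arrays in 30 members, while the open triangles, labelled array A, lay near the *arf6-2 arf8-3* arrays.

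Many members were also higher in *myb21-5 myb24-5* flowers at stage 13, on mutant arrays that the rule had not used. With all arrays, 16 of 33 members were called higher than in wild type (limma, Benjamini-Hochberg adjusted p under 0.05 over all probe sets, and at least 2-fold), against 1.38% of all 22746 probe sets. Without labelled array A, 23 members were called higher, against 2.00% of all, and without replicate B or C in its place 10 were. The median difference over the 33 members was 1.30 with all arrays and 1.59 without that array, against 0.02 and 0.03 over all probe sets. With all arrays 0 members were called lower, and 0 were lower at an unadjusted p under 0.05, while 2.44% and 10.2% of all probe sets were lower by these calls. Without labelled array A, 1 member was called lower (*GSTF12*), against 2.49% of all. All 3 *myb21-5 myb24-5* arrays lay above all 3 wild-type arrays in 17 members (12.2% of all probe sets), and replicates B and C did so in 30 of 33 members, where 22.3% of all did. The wild-type arrays of stage 13 are shared with the rule only through its limit on the wild-type stage change.

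Against *arf6-2 arf8-3* at stage 13, a comparison in which no array had been used to choose the members, the outcome turned on labelled array A. With all arrays 0 of 33 members passed the limma test in either direction, as did 0 of all 22746 probe sets (0.00%), although 24 members were higher at an unadjusted p under 0.05 and 0 lower (6.94% and 7.13% of all probe sets) and the methods' t-test, unadjusted, called 1. Without labelled array A, 23 members were called higher and 1 lower, against 2.80% and 1.64% of all probe sets. With all arrays the adjusted p was 0.182 or higher for each member, so the differences between the mutants that are given below for single members leave that array out. The median difference was 0.88 with all arrays and 1.28 without it, against 0.01 over all probe sets. All 3 *myb21-5 myb24-5* arrays lay above all *arf6-2 arf8-3* arrays in 8 members (6.57% of all probe sets). Replicates B and C lay above all *arf6-2 arf8-3* arrays in 28 members (26.7% of all probe sets) and above all wild-type and all *arf6-2 arf8-3* arrays in 26 (11.4%).

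In *arf6-2 arf8-3* flowers at stage 13, 3 members were called higher than wild type and 1 lower, and more of the 33 lay above wild type than below. The rule had taken only members near wild type in this mutant at the earlier stage, so small differences here are not independent of that choice. Called higher were *At1g66760*, *At2g28130* and *MSRB5*, 3 of 33 against 2.60% of all probe sets, and called lower was *PRP2*, 1 of 33 against 3.57%. Without labelled array A, which enters here only through the estimate of the spread, the same counts stood against 2.75% and 3.72%. Without *arf6-2 arf8-3* stage 13 replicate A only 1 member was called higher, and the call of *PRP2* was lost without wild-type stage 13 replicate A or B or *arf6-2 arf8-3* stage 13 replicate B or C. The median difference from wild type was 0.15, and 23 of 33 members lay above wild type, where 49.7% of all probe sets did. At any fold, with all arrays, 5 members were called higher, against 9.15% of all probe sets. The *arf6-2 arf8-3* arrays lay above all wild-type arrays in 11 members (19.3% of all probe sets) and below them in 3 (16.6%).

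Among the enzymes that act on small molecules, *MES9*, *UGT76E12* and *At1g14120* had the largest stage 13 differences from wild type without labelled array A. *MES9* encodes a methylesterase, of a family that releases hormones such as salicylate, jasmonate and auxin from their methyl esters. At stage 12 it had 5.53, 6.13 and 6.59 in wild type, 6.11, 6.21 and 6.99 in *arf6-2 arf8-3* and 6.85, 7.72 and 8.55 in *myb21-5 myb24-5*. At stage 13 it had 6.65, 6.66 and 7.58 in wild type, 6.53, 7.11 and 7.55 in *arf6-2 arf8-3*, and 9.56 and 9.57 on replicates B and C of the *myb21-5 myb24-5* mutant with 6.59 on labelled array A. Both B and C lay well above every other array of stage 13, and labelled array A lay below all wild-type arrays. The difference from wild type was 1.60 (SE 0.65, adjusted p = 0.162) with all arrays and 2.60 (SE 0.46, adjusted p = 0.00163) without labelled array A. With the replicate letter as a block it passed the test with all arrays (adjusted p = 0.0173). The block fit with all arrays, here and below, took labelled array A as replicate A of *myb21-5 myb24-5*, which it may not be. Against *arf6-2 arf8-3* the difference of *MES9* was 2.50 (SE 0.46, adjusted p = 0.00216) without labelled array A. Of the 11 listed *MES* genes, *MES9* was the only one with a named probe set.

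*UGT76E12* encodes a UDP-glycosyltransferase, an enzyme that attaches sugars to small molecules. Its stage 12 values were 5.31, 5.31 and 5.83 in wild type, 5.02, 5.11 and 5.55 in *arf6-2 arf8-3* and 6.08, 6.71 and 7.55 in *myb21-5 myb24-5*. Its stage 13 values were 5.71, 5.62 and 5.71 in wild type and 5.29, 5.37 and 5.84 in *arf6-2 arf8-3*, and in *myb21-5 myb24-5* 7.72 and 8.67 on B and C and 5.28 on labelled array A. Wild type and *arf6-2 arf8-3* overlapped at both stages, and B and C stood apart from both. When labelled array A was left out it was 5.73-fold higher than wild type (2.52, SE 0.35, adjusted p = 0.000213) and 6.48-fold higher than *arf6-2 arf8-3* (2.70, SE 0.35, adjusted p = 0.000134). With all arrays the difference from wild type was 1.55 (SE 0.59, adjusted p = 0.13), and with the replicate block it passed the test (adjusted p = 0.0392).

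*At1g14120*, annotated as a 2-oxoglutarate-dependent dioxygenase, had the lowest wild-type mean of all members at stage 12. It had 3.80, 3.91 and 3.85 in wild type, 3.81, 4.05 and 4.14 in *arf6-2 arf8-3* and 4.71, 5.34 and 5.35 in *myb21-5 myb24-5* at stage 12. At stage 13 wild type had 3.78, 3.99 and 3.70 and *arf6-2 arf8-3* 3.82, 3.88 and 3.83, while *myb21-5 myb24-5* had 6.11 and 6.98 on B and C and 3.95 on labelled array A. The level on B and C was higher than on any stage 12 array of the same mutant. Its difference from wild type was 1.86 (SE 0.49, adjusted p = 0.0239) with all arrays and 2.73 (SE 0.22, adjusted p = 1.09e-06) without labelled array A. The stage 12 wild-type mean lay at the 3.74th percentile of all probe sets, so the wild-type signal may be at the floor of the scale and these differences may understate the change. Against *arf6-2 arf8-3* it was 2.71 (SE 0.22, adjusted p = 1.58e-06) without that array. The next gene along the chromosome, *At1g14130*, of the same enzyme family, rose too without labelled array A (1.23 above wild type), but was no member.

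*CYP83B1*, the cytochrome P450 that commits indole-derived oximes to glucosinolate synthesis, had 9.42, 9.27 and 9.73 in wild type, 10.02, 9.39 and 9.66 in *arf6-2 arf8-3* and 10.57, 10.64 and 10.69 in *myb21-5 myb24-5* at stage 12. Its stage 13 values were 8.86, 8.87 and 9.09 in wild type, 10.41, 9.68 and 9.56 in *arf6-2 arf8-3*, 11.01 and 10.81 on B and C of *myb21-5 myb24-5* and 10.44 on labelled array A. Both mutants lay above wild type at stage 13 without overlap. Its difference from wild type was 1.81 (SE 0.21, adjusted p = 3.49e-05) for *myb21-5 myb24-5* with all arrays, 1.97 (SE 0.22, adjusted p = 3.03e-05) without labelled array A, and 0.95 (SE 0.21, adjusted p = 0.00558) for *arf6-2 arf8-3*, which was below the 2-fold limit. The *myb21-5 myb24-5* arrays B and C lay above those of *arf6-2 arf8-3* (1.03, SE 0.22, adjusted p = 0.00704 without labelled array A).

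Other genes of glucosinolate synthesis rose in *myb21-5 myb24-5* as well at stage 13. Of 13 listed indole pathway genes, 2 were measured beside *CYP83B1*, and both passed the test against wild type at any fold with all arrays, where 4.01% of all probe sets were higher. *CYP79B3*, which makes the oxime from tryptophan, rose by 1.49 (SE 0.34, adjusted p = 0.00972), and *UGT74B1*, a glucosyltransferase of the core pathway, by 1.51 (SE 0.18, adjusted p = 5.12e-05). These differences were 2.06 (SE 0.20, adjusted p = 5.51e-06) and 1.53 (SE 0.21, adjusted p = 0.000169) without labelled array A. Of 6 measured genes of the aliphatic pathway (of 10 listed), 5 were higher and 0 lower at any fold. They were *BCAT4*, which starts methionine chain elongation (3.96, SE 0.67, adjusted p = 0.00111), *CYP83A1* (3.25, SE 0.48, adjusted p = 0.000348), *SOT17* (1.98, SE 0.17, adjusted p = 1.9e-06) and *MYB28*, a transcription factor that activates the pathway (1.94, SE 0.37, adjusted p = 0.00258), with *UGT74C1* as the fifth. Without labelled array A the same counts stood, with *BCAT4* at 3.84 (SE 0.76, adjusted p = 0.0038) and *MYB28* at 1.39 (SE 0.26, adjusted p = 0.00261). *UGT74B1* was also higher than wild type in *arf6-2 arf8-3* (1.32, SE 0.18, adjusted p = 0.000137), while *CYP79B3* was at -0.22 (SE 0.34, adjusted p = 0.768) there. The aliphatic genes were higher than wild type in *arf6-2 arf8-3* as well, in 6 of 6 measured (9.15% of all probe sets at any fold), with *BCAT4* at 4.01 (SE 0.67, adjusted p = 0.000665). Against *arf6-2 arf8-3*, without labelled array A, *CYP79B3* was higher (2.27, SE 0.20, adjusted p = 2.53e-06), *UGT74B1* was at 0.21 (SE 0.21, adjusted p = 0.575), and *MYB28* was lower (-1.62, SE 0.26, adjusted p = 0.00081), where 6.74% of all probe sets were lower at any fold. Of these 8 genes, 5 were named only through tables of genes selected by the study from these same arrays, so they are not independent evidence of a direction.

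*At3g47540*, annotated as a chitinase, an enzyme that cleaves fungal cell walls, had 8.11, 6.97 and 7.79 in wild type, 7.83, 7.64 and 7.45 in *arf6-2 arf8-3* and 9.47, 9.11 and 8.80 in *myb21-5 myb24-5* at stage 12. At stage 13 it had 7.45, 6.91 and 6.99 in wild type, 7.60, 7.39 and 7.19 in *arf6-2 arf8-3*, 8.68 and 8.46 on B and C and 7.52 on labelled array A. All *myb21-5 myb24-5* arrays lay above wild type at both stages. The stage 13 difference from wild type was 1.10 (SE 0.30, adjusted p = 0.0314) with all arrays and 1.45 (SE 0.28, adjusted p = 0.00306) without labelled array A.

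*At2g43535*, a defensin-like trypsin inhibitor, had 7.99, 8.19 and 8.22 in wild type, 7.95, 7.65 and 7.77 in *arf6-2 arf8-3* and 9.21, 9.78 and 9.64 in *myb21-5 myb24-5* at stage 12. Its stage 13 values were 7.05, 7.60 and 7.80 in wild type, 8.06, 7.84 and 8.19 in *arf6-2 arf8-3*, 9.77 and 9.92 on B and C and 7.94 on labelled array A, which lay within the *arf6-2 arf8-3* range. It was 3.3-fold higher than wild type with all arrays (1.72, SE 0.37, adjusted p = 0.00713) and 5.12-fold higher without labelled array A (2.36, SE 0.20, adjusted p = 2.12e-06). The gene lies in a cluster of related genes. Of its 4 measured relatives, 3 passed the test against wild type at any fold with all arrays (4.01% of all probe sets), *ATTI2* (1.95, SE 0.29, adjusted p = 0.000423), *At2g43550* (1.98, SE 0.45, adjusted p = 0.00976) and *At2g43530* (0.97, SE 0.19, adjusted p = 0.00281), while *ATTI1* was at 0.28 (SE 0.26, adjusted p = 0.63). The same 3 passed without labelled array A. Leaving out labelled array A, the first 3 were also higher than in *arf6-2 arf8-3*, led by *At2g43550* (2.72, SE 0.23, adjusted p = 2.47e-06), and *ATTI1* was lower (-0.86, SE 0.25, adjusted p = 0.0315). In *arf6-2 arf8-3*, with all arrays, *ATTI2* (0.94, SE 0.29, adjusted p = 0.0384) and *ATTI1* (0.86, SE 0.26, adjusted p = 0.0309) were also higher than wild type. By that call 9.15% of all probe sets were higher. *At2g43550* and *At2g43530* were at 0.04 (SE 0.45, adjusted p = 0.975) and 0.38 (SE 0.19, adjusted p = 0.2) there. *ATTI1* and *ATTI2* were named only through the tables of genes selected by the study from these same arrays. Probes of related genes may cross-hybridise, which was not tested.

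The probe set for both arginase genes, *At4g08870* and *At4g08900*, which split arginine into ornithine and urea, had 10.66, 10.27 and 10.79 in wild type, 10.60, 9.97 and 10.07 in *arf6-2 arf8-3* and 11.71, 11.61 and 11.64 in *myb21-5 myb24-5* at stage 12. Its stage 13 values were 10.07, 9.53 and 9.77 in wild type, 10.66, 10.09 and 10.31 in *arf6-2 arf8-3*, 11.97 and 11.88 on B and C and 10.60 on labelled array A. It cannot tell these genes apart. Replicates B and C lay above all other stage 13 arrays, and labelled array A lay among those of *arf6-2 arf8-3*. The difference from wild type was 1.69 (SE 0.30, adjusted p = 0.00142) with all arrays and 2.13 (SE 0.21, adjusted p = 9e-06) without labelled array A, and that from *arf6-2 arf8-3* was 1.57 (SE 0.21, adjusted p = 0.000179) without it.

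Genes of jasmonate synthesis and signalling moved at stage 13 in the same mutant. Against wild type, 3 of 7 measured synthesis genes were higher and 1 lower with all arrays, and 6 were higher and 1 lower without labelled array A, where 5.04% and 5.67% of all probe sets were higher and lower at any fold. Leading these were *LOX4* (3.47, SE 0.17, adjusted p = 8.17e-09 without labelled array A, and a difference of 2.26 with all arrays) and *LOX3* (2.93, SE 0.21, adjusted p = 4.01e-07, and past the test with all arrays too), lipoxygenases that oxidise the fatty acid precursor, and the gene that fell was *JMT*, the jasmonate methyltransferase (-1.46, SE 0.33, adjusted p = 0.00979). Of 11 measured signalling genes, 2 were higher with all arrays and 9 without that array. *JAZ5* (3.30, SE 0.13, adjusted p = 6.19e-10) and *JAZ7* (3.19, SE 0.36, adjusted p = 2.69e-05) led without that array, both of the JAZ repressor family, and with all arrays they were at 1.68 (SE 0.85, adjusted p = 0.281) and 1.81 (SE 0.78, adjusted p = 0.192). Against *arf6-2 arf8-3*, all 7 synthesis and all 11 signalling genes measured were higher without labelled array A, where 6.24% of all probe sets were. With all arrays 0 of these 18 passed the limma test, though all 18 were higher at an unadjusted p under 0.05. At stage 12, 5 and 7 genes of these lists were higher than wild type when labelled array A was left out of the estimate of the spread (1.28% of all probe sets) and 0 with it (0.484%), where 3 of each were higher at an unadjusted p under 0.05. No gene of either list was a member, and 16 of the 18 were named only through the tables of genes selected by the study from these same arrays. Those tables include a list that required opposite stage 12 differences from wild type in the mutants, with *myb21-5 myb24-5* the higher. Naming genes through it favours higher values in *myb21-5 myb24-5*, above all against *arf6-2 arf8-3*. These counts are therefore not independent evidence of a direction, and the percentages of all probe sets are not a fair comparison.

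**Figure D4:**
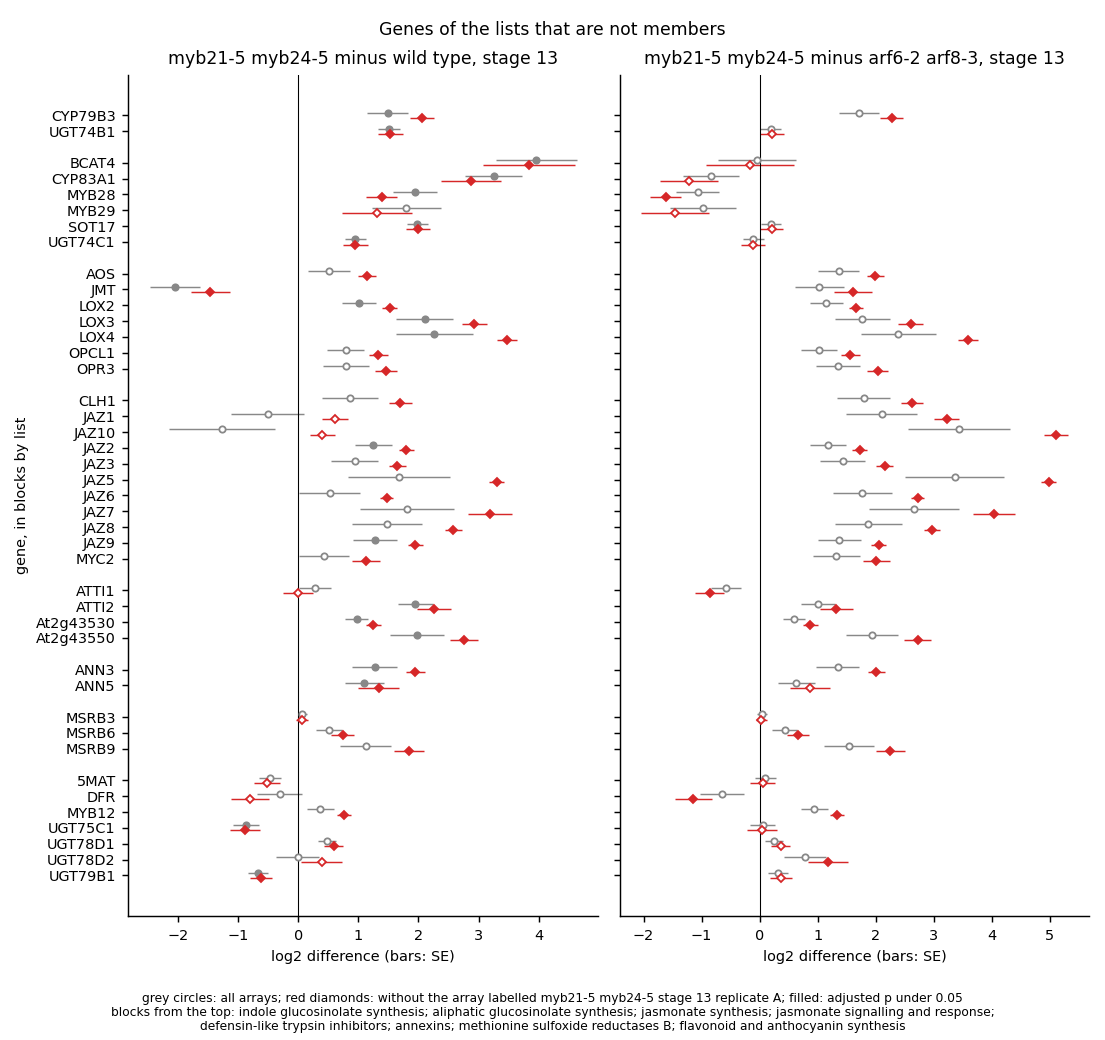
Log2 differences with standard errors (horizontal axes) of genes in the pathway and family lists that are not members, for *myb21-5 myb24-5* minus wild type (left) and minus *arf6-2 arf8-3* (right) at stage 13, in blocks by list. Grey circles use all arrays and red diamonds leave out labelled array A, and filled symbols passed the limma test, which none of the grey circles on the right did.

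*MSRB5* and *ANNAT4* belong to small families linked to oxidative stress and calcium. *MSRB5* encodes a methionine sulfoxide reductase, which repairs oxidised methionine in proteins. It had 9.61, 9.90 and 9.80 in wild type, 9.43, 9.15 and 10.03 in *arf6-2 arf8-3* and 10.81, 10.89 and 10.80 in *myb21-5 myb24-5* at stage 12, and 8.53, 9.57 and 8.60 in wild type, 9.95, 9.77 and 10.15 in *arf6-2 arf8-3*, and 11.11 and 10.76 on B and C with 9.87 on labelled array A at stage 13. At stage 13 both mutants lay above all wild-type arrays. The difference from wild type was 1.68 (SE 0.31, adjusted p = 0.00196) for *myb21-5 myb24-5* with all arrays, 2.04 (SE 0.28, adjusted p = 0.000172) without labelled array A, and 1.06 (SE 0.31, adjusted p = 0.0251) for *arf6-2 arf8-3*. The relatives *MSRB6* (0.74, SE 0.19, adjusted p = 0.0208) and *MSRB9* (1.84, SE 0.25, adjusted p = 0.000179) were higher than wild type without labelled array A, though neither passed the test with all arrays, while *MSRB3* was at 0.06 (SE 0.10, adjusted p = 0.774).

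*ANNAT4* encodes an annexin, a protein that binds membranes in the presence of calcium. Its stage 12 values were 8.76, 8.80 and 8.89 in wild type, 8.69, 8.32 and 8.69 in *arf6-2 arf8-3* and 9.95, 9.77 and 9.81 in *myb21-5 myb24-5*. At stage 13 they were 8.43, 8.03 and 7.78 in wild type, 8.70, 8.21 and 8.44 in *arf6-2 arf8-3*, and 9.95 and 9.63 on B and C with 8.58 on labelled array A. Replicates B and C again lay above all wild-type and *arf6-2 arf8-3* arrays. The difference from wild type was 1.30 (SE 0.26, adjusted p = 0.00426) with all arrays and 1.71 (SE 0.18, adjusted p = 1.78e-05) without labelled array A. Its neighbour on the chromosome, *ANN3*, no member although it was 1.09 higher at stage 12, was 1.95 (SE 0.15, adjusted p = 6.49e-07) above wild type at stage 13 without labelled array A, and *ANN5* was 1.34 (SE 0.34, adjusted p = 0.0188). With all arrays these differences were 1.27 (SE 0.37, adjusted p = 0.0417) and 1.10 (SE 0.32, adjusted p = 0.0415). By that call, at any fold, 4.01% of all probe sets were higher. At stage 12, *ANN5* lay on the other side of wild type in *myb21-5 myb24-5*, at -0.81 (SE 0.32, adjusted p = 0.285 with all arrays). Of 8 listed annexin genes 3 were measured. *ANN3* and *ANN5* were named only through the tables of genes selected by the study from these same arrays.

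*COPT3*, a gene of the copper transporter family, had 6.64, 6.10 and 6.87 in wild type, 6.79, 7.28 and 6.52 in *arf6-2 arf8-3* and 8.33, 7.57 and 7.94 in *myb21-5 myb24-5* at stage 12. At stage 13 it had 6.26, 6.06 and 6.43 in wild type, 5.96, 6.03 and 6.18 in *arf6-2 arf8-3*, 6.85 and 7.54 on B and C and 6.24 on labelled array A. Its *myb21-5 myb24-5* level was lower at stage 13 than at stage 12, by 0.75 on replicates B and C. The stage 13 difference from wild type did not reach 2-fold, at 0.63 (SE 0.29, adjusted p = 0.233) with all arrays and 0.95 (SE 0.28, adjusted p = 0.0407) without labelled array A. No other *COPT* gene had a named probe set.

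The receptor-like kinase gene *At1g61610* and 3 probe sets without a gene name were high on B and C at stage 13. *At1g61610*, of the S-locus lectin kinase family, was nearly flat at 4.32, 4.40 and 4.51 in wild type and 4.39, 4.41 and 4.50 in *arf6-2 arf8-3* at stage 12 and had 4.81, 5.16 and 5.76 in *myb21-5 myb24-5*. At stage 13 it had 4.42, 4.44 and 4.36 in wild type, 4.49, 4.42 and 4.76 in *arf6-2 arf8-3*, and 6.18 and 6.99 on B and C with 4.47 on labelled array A. Replicates B and C thus stood alone above an otherwise level background. The difference from wild type was 1.48 (SE 0.42, adjusted p = 0.036) with all arrays and 2.18 (SE 0.24, adjusted p = 1.88e-05) without labelled array A.

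Probe set 259381_s_at had 7.84, 8.48 and 8.76 in wild type, 7.92, 8.17 and 8.14 in *arf6-2 arf8-3* and 8.92, 9.36 and 10.12 in *myb21-5 myb24-5* at stage 12. In stage 13 flowers wild type had 7.63, 7.73 and 8.20, *arf6-2 arf8-3* had 7.55, 7.65 and 7.90, and *myb21-5 myb24-5* had 10.25 and 10.74 on B and C with 7.53 on labelled array A. Replicates B and C lay above all other stage 13 arrays. Without labelled array A it had the largest stage 13 difference from *arf6-2 arf8-3* of all members, 6.93-fold (2.79, SE 0.31, adjusted p = 3.18e-05), and its difference from wild type was 2.64 (SE 0.31, adjusted p = 4.42e-05). With all arrays it passed the test against wild type only with the replicate block (adjusted p = 0.0222, against 0.0943 without the block).

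Probe set 264271_at had 5.77, 6.62 and 6.79 in wild type, 6.02, 6.05 and 6.12 in *arf6-2 arf8-3* and 6.93, 8.05 and 8.27 in *myb21-5 myb24-5* at stage 12, and 5.58, 5.76 and 6.18 in wild type, 5.76, 5.82 and 5.99 in *arf6-2 arf8-3*, and 7.53 and 8.13 on B and C with 5.86 on labelled array A at stage 13. Its difference from wild type was 1.99 (SE 0.35, adjusted p = 0.00155) without that array, and with all arrays it passed the test only with the replicate block (adjusted p = 0.0109, against 0.0872). For 247600_at the stage 12 values were 5.57, 5.75 and 5.91 in wild type, 5.82, 5.93 and 5.92 in *arf6-2 arf8-3* and 6.32, 6.74 and 7.05 in *myb21-5 myb24-5*. Its stage 13 values were 5.57, 5.32 and 5.57 in wild type, 5.58, 5.48 and 5.80 in *arf6-2 arf8-3*, and 7.54 and 7.65 on B and C with 5.52 on labelled array A. Both probe sets were thus high on B and C and level elsewhere at stage 13. The 247600_at difference from wild type was 1.42 (SE 0.39, adjusted p = 0.0311) with all arrays and 2.11 (SE 0.17, adjusted p = 1.24e-06) without labelled array A.

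Without labelled array A, 9 members were not called in either direction against wild type at stage 13, and *GSTF12* alone was called lower. *GSTF12* encodes the glutathione transferase needed to bring anthocyanins to the vacuole. At stage 12 it had 6.63, 6.94 and 7.58 in wild type, 7.16, 7.42 and 6.97 in *arf6-2 arf8-3* and 7.94, 8.16 and 8.10 in *myb21-5 myb24-5*. Its stage 13 values were 7.41, 7.36 and 7.20 in wild type, 7.47, 6.84 and 7.57 in *arf6-2 arf8-3*, 5.82 and 6.47 on B and C and 7.57 on labelled array A. Replicates B and C had the lowest values of all 18 arrays, where the same mutant had the highest at stage 12. Its difference from wild type was -0.71 (SE 0.34, adjusted p = 0.25) with all arrays and -1.18 (SE 0.27, adjusted p = 0.00898) without labelled array A, and that from *arf6-2 arf8-3* was -1.15 (SE 0.27, adjusted p = 0.0101) without it.

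Other genes of flavonoid and anthocyanin synthesis were divided. Of 7 measured beside *GSTF12* (of 22 listed), 2 were lower than wild type at stage 13 with all arrays, where 5.41% of all probe sets were lower at any fold. They were the anthocyanin glycosyltransferases *UGT75C1* (-0.87, SE 0.21, adjusted p = 0.0168) and *UGT79B1* (-0.67, SE 0.17, adjusted p = 0.017), and both were also lower without labelled array A. They were lower than wild type in *arf6-2 arf8-3* too, with *UGT75C1* at -0.91 (SE 0.21, adjusted p = 0.00741) and *UGT79B1* at -0.98 (SE 0.17, adjusted p = 0.000684), and the mutants differed by 0.04 (SE 0.25, adjusted p = 0.946) and 0.36 (SE 0.19, adjusted p = 0.243) without labelled array A. When labelled array A was left out, 2 others were higher, *MYB12*, an activator of flavonol synthesis (0.76, SE 0.12, adjusted p = 0.000532), and *UGT78D1*, a flavonol glycosyltransferase (0.59, SE 0.16, adjusted p = 0.0262).

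*PRP2* encodes a proline-rich protein of the cell wall. It had 8.10, 7.36 and 7.88 in wild type, 8.04, 8.73 and 6.86 in *arf6-2 arf8-3* and 9.62, 8.95 and 8.77 in *myb21-5 myb24-5* at stage 12, and 8.97, 8.20 and 8.13 in wild type, 6.90, 6.36 and 6.42 in *arf6-2 arf8-3*, and 8.89 and 8.95 on B and C with 6.61 on labelled array A at stage 13. At stage 13 the *arf6-2 arf8-3* arrays lay below all others but labelled array A. Against wild type its difference was -0.28 (SE 0.55, adjusted p = 0.867) with all arrays and 0.49 (SE 0.43, adjusted p = 0.566) without labelled array A, and *arf6-2 arf8-3* was -1.87 (SE 0.55, adjusted p = 0.0271). The difference between the mutants was 2.37 (SE 0.43, adjusted p = 0.00192) without labelled array A.

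*At1g30760*, a FAD-binding oxidoreductase, had 5.40, 4.65 and 4.90 in wild type, 5.08, 4.97 and 4.93 in *arf6-2 arf8-3* and 6.45, 6.02 and 5.95 in *myb21-5 myb24-5* at stage 12. In stage 13 flowers wild type had 5.10, 4.71 and 4.70, *arf6-2 arf8-3* had 4.98, 4.87 and 4.31, and *myb21-5 myb24-5* had 5.21 and 5.31 on B and C with 4.74 on labelled array A. Replicates B and C lay just above the wild-type arrays, and labelled array A lay among them. Its difference from wild type was 0.25 (SE 0.22, adjusted p = 0.605) with all arrays and 0.43 (SE 0.23, adjusted p = 0.293) without labelled array A. *BGLU28*, a β-glucosidase gene, had 8.41, 8.39 and 7.93 in wild type, 7.62, 8.12 and 8.16 in *arf6-2 arf8-3* and 9.12, 8.82 and 9.58 in *myb21-5 myb24-5* at stage 12. At stage 13 it had 8.28, 9.38 and 8.00 in wild type, 8.19, 7.91 and 8.74 in *arf6-2 arf8-3*, and 9.19 and 9.04 on B and C with 8.17 on labelled array A. One wild-type array, replicate B, lay above both B and C of the mutant, so the groups overlapped. Its difference from wild type was 0.25 (SE 0.35, adjusted p = 0.788) with all arrays and 0.57 (SE 0.35, adjusted p = 0.38) without labelled array A.

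At stage 13, *At1g66760* and *At2g28130* were above wild type in both mutants. *At1g66760*, a gene of the MATE efflux transporter family, had 7.32, 7.03 and 7.27 in wild type, a mean of 8.57 (SD 0.41, n = 3) in *arf6-2 arf8-3*, 8.64 and 8.86 on B and C and 8.74 on labelled array A. Its difference from wild type was 1.54 (SE 0.28, adjusted p = 0.00189) in *myb21-5 myb24-5* with all arrays, 1.54 (SE 0.32, adjusted p = 0.0051) without labelled array A, and 1.36 (SE 0.28, adjusted p = 0.00297) in *arf6-2 arf8-3*, and the mutants differed by 0.18 (SE 0.32, adjusted p = 0.769) without labelled array A. For *At2g28130*, wild type had 7.50, 7.41 and 6.51, *arf6-2 arf8-3* had 8.32, 8.33 and 7.88, B and C had 8.07 and 7.97 and labelled array A had 8.24. All mutant arrays lay above wild type. The differences from wild type were 0.95 (SE 0.26, adjusted p = 0.0308) in *myb21-5 myb24-5* with all arrays, 0.88 (SE 0.30, adjusted p = 0.0771) without labelled array A, and 1.03 (SE 0.26, adjusted p = 0.0121) in *arf6-2 arf8-3*, and that between the mutants was -0.15 (SE 0.30, adjusted p = 0.792) without labelled array A.

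Of the remaining members, *At1g31550*, a GDSL-type lipase gene, had the largest stage 13 difference from wild type, at 1.93 (SE 0.26, adjusted p = 0.00016) with all arrays and 2.39 (SE 0.13, adjusted p = 2.11e-08) without labelled array A. It also differed from wild type in *arf6-2 arf8-3*, by 0.97 (SE 0.26, adjusted p = 0.0185). The glycosyltransferase gene *At1g53100* (1.32 with all arrays and 1.67 without labelled array A), the serine carboxypeptidase gene *At5g22860* (1.19 and 1.59), the small heat shock protein gene *At1g54050* (1.19 and 1.46), 260943_at (1.29 and 1.80) and 252827_at (1.39 and 1.62) were called higher in both fits. *CYP96A4* (0.29, 1.12 without labelled array A), *ABCG17* (0.75 and 1.19) and *At3g56730* (0.71 and 1.02) were called only without that array. Not called in either were *At3g20340*, 265740_at and 266124_at, which lay 0.45 to 0.75 above wild type with all arrays. *At2g30540*, a glutaredoxin gene, had 7.75, 7.02 and 6.72 in wild type, 9.16, 7.68 and 7.31 in *arf6-2 arf8-3*, 8.22 and 8.46 on B and C and 9.17 on labelled array A. On these arrays replicate A was the highest of each genotype, and the difference of 1.45 passed the test only with the replicate block (adjusted p = 8.49e-05, against 0.0778), and was 1.18 (SE 0.53, adjusted p = 0.2) without labelled array A.

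**Figure D5:**
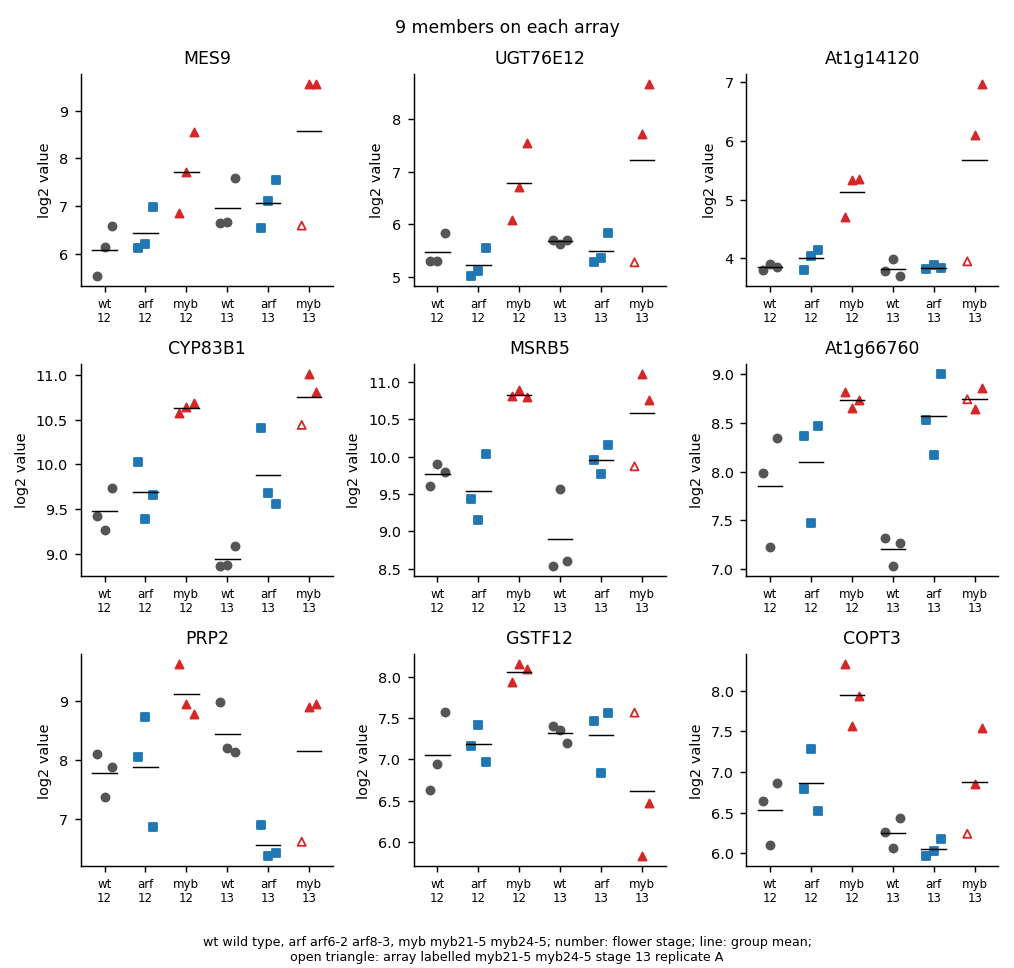
Log2 values of 9 members (vertical axes) on each array, by genotype and stage (horizontal axes), with a line at each group mean. *MES9*, *UGT76E12* and *At1g14120* were highest on *myb21-5 myb24-5* replicates B and C at stage 13, well above labelled array A (open triangle), *MSRB5* and *At1g66760* were also above wild type in *arf6-2 arf8-3* at stage 13, and *GSTF12* was at 5.82 and 6.47 on replicates B and C.

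From stage 12 to stage 13, *myb21-5 myb24-5* replicates B and C lay above the mutant's own stage 12 mean in 18 members and below it in the others, with changes from -1.92 (*GSTF12*) to 1.86 (*MES9*) and a median of 0.02, against 0.03 over all probe sets. These values use the stage 12 arrays that chose the members and are a description. Because the stage 12 mean includes replicate A, the change was also taken between replicates B and C of both stages, which gave 1.43 for *MES9*, 1.07 for *UGT76E12*, 1.20 for *At1g14120*, 1.13 for *At1g61610* and 0.75 for 259381_s_at. It was 0.25 for *CYP83B1*, 0.09 for *MSRB5*, -0.56 for *COPT3*, -0.73 for *At1g30760* and -1.98 for *GSTF12*.

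Neighbouring genes were read to see how far the rise extended along the chromosome. Of 29 measured protein-coding genes next to a member, 5 were called higher than wild type at stage 13 without labelled array A, against 2.00% of all probe sets, and 0 lower (2.49%). They were *LTI78* beside *CYP96A4*, *At2g43530* beside *At2g43535*, *At1g14130* beside *At1g14120*, *ESP* beside *At1g54050* and *ANN3* beside *ANNAT4*, and 3 of these, *At2g43530*, *At1g14130* and *ANN3*, belong to the family of their member. These neighbours were named after their values were seen.

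Markers of cell types that whole flowers hold were set beside these results. All 4 nectary markers were measured, and their mean was 9.45 to 10.10 on the stage 12 wild-type arrays, 7.86 to 7.88 in *myb21-5 myb24-5* and 6.98 to 7.10 in *arf6-2 arf8-3*. At stage 13 it was 10.41 to 10.78, 6.42 to 8.35 and 6.34 to 6.53 in the same order, with labelled array A at 6.42 and replicates B and C at 7.94 to 8.35, above all *arf6-2 arf8-3* arrays, and 3 of the 4, *CWINV4*, *YAB5* and *SWEET9*, were lower than wild type in *myb21-5 myb24-5* with all arrays. *CRC*, which specifies nectaries and carpels, was at -0.25 (SE 0.57, adjusted p = 0.893) with all arrays and higher by 0.79 (SE 0.24, adjusted p = 0.0477) without labelled array A. *SWEET9*, the nectar sugar exporter, was lower than wild type in *myb21-5 myb24-5* at stage 13, with a difference of -6.56 (SE 0.24, adjusted p = 1.04e-10) with all arrays and -6.42 (SE 0.27, adjusted p = 1.19e-09) without labelled array A. The mean of 4 measured pollen markers (of 7) was 8.68 to 9.25 in wild type, 8.04 to 9.05 in *myb21-5 myb24-5* and 7.44 to 8.12 in *arf6-2 arf8-3* at stage 12, and 7.01 to 7.77, 7.54 to 8.52 and 6.66 to 7.64 at stage 13. Labelled array A gave the lowest of these *myb21-5 myb24-5* values, and replicates B and C, at 8.02 to 8.52, lay above all wild-type arrays. Of the 4 genes *AGL66* alone passed the test against wild type, with 1.32 (SE 0.34, adjusted p = 0.0214) with all arrays and 1.61 (SE 0.35, adjusted p = 0.00645) without labelled array A. The mean of 2 tapetum markers (of 12) was 4.42 to 4.81 in wild type, 4.59 to 6.40 in *myb21-5 myb24-5* and 4.76 to 8.22 in *arf6-2 arf8-3* at stage 12. The high values lay on replicates A and B of both mutants. *A9* had 6.51, 7.23 and 4.84 in *myb21-5 myb24-5* and 7.84, 9.38 and 5.06 in *arf6-2 arf8-3*, against 4.50, 4.64 and 4.92 in wild type. *RCA*, a marker of green tissue, lay between 13.39 and 13.93 on all arrays. Of the 11 floral organ identity genes listed, none was paired with a probe set here, so they were not analysed. Whether these cell types had a part in the members' rise was not tested.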

How the data were processed

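RNA of whole flowers was hybridised to Affymetrix ATH1 arrays, 1 array per biological replicate. After scanning with MAS5, the authors ran RMA background correction and normalisation in Genespring, with no baseline correction, which gave the log2 values per probe set that they deposited. RMA pools information over all arrays and compresses differences of dim probe sets. Raw intensities were not used here, and the number of arrays limits the precision.

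Of 22810 probe sets, 64 controls were left out and 22746 tested. Names came from the platform table (13450 probe sets with 1 gene, 488 with several and 78 with none) and otherwise from the study's supplementary tables (512 with 1 gene and 28 with several), and 8190 stayed unnamed. The order of genes along the chromosomes, used for neighbouring genes only, came from the RefSeq annotation, and no sequences were used.

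Group means of all 18 arrays were fitted with limma 3.58.1 (lmFit and eBayes, statmod 1.5.0, R 4.3.3). The two-sided p-values were adjusted over 22746 probe sets per comparison by the Benjamini-Hochberg method, and adjusted p-values in the text come from this fit or, where so stated, from the same fit without 1 array or with the replicate letter as a block. Calls needed an adjusted p under 0.05 and at least 2-fold, and genes of lists any fold. The fit was tested on simulated data. The study's t-test, without correction, was an alternative, as were other thresholds, scalings and array weights.

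The members and gene lists were chosen with earlier results of these data known. Described in full are the 8 members with the largest stage 12 difference, the 8 with the largest difference between the mutants at stage 13, the 4 with the smallest difference from wild type at stage 13, and those in the lists. The neighbouring genes, *At1g66760*, *At2g28130*, *At1g31550* and *At2g30540* were singled out after their values were seen.

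The letters A, B and C were taken to pair the arrays because same-lettered stage 13 arrays deviated together from their group means. The correlations across probe sets were 0.102 to 0.249 for *myb21-5 myb24-5* with wild type, 0.115 to 0.279 for both mutants and 0.232 to 0.553 for *arf6-2 arf8-3* with wild type. Arrays of different letters were not compared in this way, so these values do not show that the letters pair the arrays. The labels do not say what a letter shares. Labelled array A entered these correlations, and the block fit with all arrays, as replicate A of *myb21-5 myb24-5*. It resembled *arf6-2 arf8-3* stage 13 replicate A, so letter A may not pair *myb21-5 myb24-5* at stage 13. The deviations of B and C also depend on it through the group mean.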

Additional observations from a re-analysis of the deposited data

Results flagged for a closer look

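The direction of *GSTF12* was opposite at the 2 stages. All 3 *myb21-5 myb24-5* arrays lay above all wild-type arrays at stage 12, where the members were chosen for this, while stage 13 replicates B and C both lay below all wild-type arrays, with a mean difference of -1.18. On the third array, labelled replicate A, the value was 7.57, above the wild-type arrays (7.20 to 7.41). The difference between the stages was not tested.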

How the results depend on the processing

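With the replicate letter as a block, 21 members in place of 16 were called higher than wild type in *myb21-5 myb24-5* at stage 13 (*MES9*, *UGT76E12*, *At2g30540*, 259381_s_at and 264271_at were gained and 0 lost), and the block changed no other call of members. Calls over all probe sets in this comparison, higher and lower together, also rose under the block, from 868 to 977. Part of the gain in members may thus be general. For the other settings of this section, no count over all probe sets is given beside the members. The block with labelled array A left out gave 25 higher and 1 lower than wild type, and 24 higher and 1 lower than *arf6-2 arf8-3*.

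Members called higher than wild type (16) numbered 1 by the methods' t-test after Benjamini-Hochberg adjustment, 6 with only the groups compared in the fit, 10 at an adjusted p under 0.01, and 10 among the 21 members at least 1 above wild type at stage 12. Array weights, which let an array count for less, gave 1 member lower than wild type, and 22 higher and 1 lower than *arf6-2 arf8-3*, where the main counts were 0. The methods' t-test without adjustment called 1 higher than *arf6-2 arf8-3*. For *arf6-2 arf8-3* against wild type, 3 higher became 0 (t-test after adjustment), 1 (array weights, adjusted p under 0.01, or among the 21 members at least 1 above wild type), 5 (any fold or 1.5-fold) or 6 (among 81 probe sets at least 0.6 above wild type), and 1 lower became 0 (adjusted p under 0.01) or 2 (among the same 81).

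Leaving out 1 array at a time gave 10 (without *myb21-5 myb24-5* stage 13 B or C) to 23 (without labelled array A) members higher and 0 to 1 lower than wild type, 0 to 23 higher and 0 to 1 lower than *arf6-2 arf8-3* (all but 0 without labelled array A), and, in *arf6-2 arf8-3*, 1 (without its stage 13 A) to 3 higher and 0 to 1 lower than wild type. The rule took 33 probe sets with all arrays, 30 to 63 with 1 array left out (63 without stage 12 *myb21-5 myb24-5* A and 54 without C), 21 at a limit of 1 and 81 at 0.6. At stage 13, leaving out labelled array A moved the members' median difference of *myb21-5 myb24-5* from wild type from 1.30 to 1.59. That from *arf6-2 arf8-3* moved from 0.88 to 1.28. Of the named members' differences, 0 reversed when past the test. The cause of these changes was not tested beyond the arrays or thresholds named. With 3 arrays a group, or 2 without labelled array A, small differences were not detectable, and *myb21-5 myb24-5* stage 13 rests on replicates B and C.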
